A study of Mus musculus with 9 samples.

Results

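Eicosanoids are lipid mediators made from arachidonic acid, and the mRNAs of 10 genes grouped as enzymes and partner proteins of their synthesis were followed in sorted mouse monocytes: Pla2g7, Ptgs1, Ptgs2, Ptges, Ptges3, Tbxas1, Alox5, Alox5ap, Lta4h and Ltc4s. Pla2g7 is in the group although its product inactivates platelet-activating factor and is not itself a step of eicosanoid synthesis. The genes were taken by their symbols, and all 10 were found among the 23238 gene symbols of the count tables. Of these 10, 9 passed the filter on low counts and were tested, and Ltc4s did not. By edgeR's quasi-likelihood test no enzyme was called at an adjusted p under 0.05 in any of the 4 comparisons made. Pla2g7 and Lta4h were higher in each library of NMO mice, from blood or brain, than in each library from the blood of normal mice. Of all genes tested, 2.34% separated NMO from normal blood in this way and 6.07% brain from normal blood. Ltc4s was counted in 2 libraries from the brain and in no library from blood.

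The libraries came from an NMO-like mouse model, in which human IgG of neuromyelitis optica patients (NMO-IgG) and human complement were injected into the striatum on one side of the brain. All mice were female, wild-type C57BL/6N animals of 12 weeks. Nor_Bl_mono denotes blood monocytes of normal mice that received no injection, NMO_Bl_mono those from the blood of NMO mice, and NMO_Br_mono those from the brain of NMO mice. All were taken on day 1 and sorted as CD45+CD11b+P2ry12-Ly6C high Ly6G- cells. Each group had 3 libraries, each from a pool of 5 mice, and no library from mice given control IgG was analysed here, so the injection itself and NMO-IgG cannot be told apart. Blood cells were taken over a density gradient, whereas brains were digested with enzymes at body temperature, so tissue and cell preparation cannot be told apart either.

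Arachidonic acid is freed from membranes by phospholipases and then enters one of several branches. Cyclooxygenases turn it into the prostaglandin precursor, from which terminal synthases make prostaglandins and thromboxane, whereas 5-lipoxygenase, presented with its substrate by the protein FLAP, makes leukotriene A4, the precursor of leukotriene B4 and of the cysteinyl leukotrienes. Monocytes are known to make leukotriene B4, prostaglandin E2 and thromboxane, and the pathway depends on how much of each downstream enzyme a cell holds.

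Levels are CPM, the counts of a gene relative to the total of its library, scaled with TMM factors. The libraries read the 3ʹ ends of transcripts, and the values are not divided by length, so they are compared between libraries and not between genes. The floor of a library was set at 3 counts, or 0.271 to 0.429 CPM. Total counts ranged from 7584649 to 10419647, but the number of genes with a count ranged more widely, from 4567 in NMO_Bl_mono replicate 3 and 6473 in NMO_Br_mono replicate 2 to 11556 in NMO_Bl_mono replicate 1. Of genes at 50 CPM or more in both other libraries of the group, 22.2% were at or under the floor in NMO_Bl_mono replicate 3, 8.28% in NMO_Br_mono replicate 2 and 1.94% in Nor_Bl_mono replicate 3. Among the 10 enzymes, 6 had no count in Nor_Bl_mono replicate 3 and 6 in NMO_Bl_mono replicate 3, against 1 to 3 in each of the other libraries. In these bulk samples, fewer cells of a type and less RNA per cell cannot be told apart.

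The sequences below are the RefSeq promoters (GRCm38.p6) of 6 of these genes, from 250 bases before the annotated start to 50 bases into the transcript, 5′ to 3′ on the gene's strand. They are shown because Pla2g7 and Lta4h separated the blood groups, Ltc4s was counted in the brain alone, and Ptgs1, Ptgs2 and Tbxas1 varied together over the libraries. Capitals mark every match, on either strand, to 7 motifs: the GC box GGGCGG, the cAMP response element core TGACGT, the E-box CACGTG, the C/EBP palindrome TTGCGCAA, the AP-1 site TGANTCA, the PU.1-type ETS core GAGGAA and the TATA box TATAAA.
Pla2g7: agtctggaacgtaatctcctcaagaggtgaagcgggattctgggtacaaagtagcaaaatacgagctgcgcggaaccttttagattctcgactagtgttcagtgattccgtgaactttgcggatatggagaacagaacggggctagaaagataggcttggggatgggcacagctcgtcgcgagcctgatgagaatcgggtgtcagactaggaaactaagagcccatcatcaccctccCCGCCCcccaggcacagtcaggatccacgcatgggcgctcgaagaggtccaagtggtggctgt
Lta4h: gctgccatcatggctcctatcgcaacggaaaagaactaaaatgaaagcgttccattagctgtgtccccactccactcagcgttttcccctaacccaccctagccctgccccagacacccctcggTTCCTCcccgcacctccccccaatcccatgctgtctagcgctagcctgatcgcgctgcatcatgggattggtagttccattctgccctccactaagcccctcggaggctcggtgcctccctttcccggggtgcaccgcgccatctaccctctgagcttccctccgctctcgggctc
Ltc4s: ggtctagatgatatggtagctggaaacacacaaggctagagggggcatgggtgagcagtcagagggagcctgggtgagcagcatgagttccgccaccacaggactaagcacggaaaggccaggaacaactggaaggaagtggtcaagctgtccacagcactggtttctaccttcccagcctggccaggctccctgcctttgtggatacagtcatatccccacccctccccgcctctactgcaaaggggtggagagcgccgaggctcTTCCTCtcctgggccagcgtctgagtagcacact
Ptgs1: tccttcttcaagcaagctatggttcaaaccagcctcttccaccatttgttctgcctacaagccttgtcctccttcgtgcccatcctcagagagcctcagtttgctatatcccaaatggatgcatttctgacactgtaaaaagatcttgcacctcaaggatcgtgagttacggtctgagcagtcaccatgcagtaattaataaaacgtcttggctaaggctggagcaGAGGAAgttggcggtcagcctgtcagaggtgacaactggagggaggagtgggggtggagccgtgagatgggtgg
Ptgs2: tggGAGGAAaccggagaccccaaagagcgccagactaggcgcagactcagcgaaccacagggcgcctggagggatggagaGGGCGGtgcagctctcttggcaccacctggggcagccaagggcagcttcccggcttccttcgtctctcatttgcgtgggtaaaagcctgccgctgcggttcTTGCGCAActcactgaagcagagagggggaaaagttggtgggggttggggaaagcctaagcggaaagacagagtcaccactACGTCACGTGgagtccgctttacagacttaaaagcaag
Tbxas1: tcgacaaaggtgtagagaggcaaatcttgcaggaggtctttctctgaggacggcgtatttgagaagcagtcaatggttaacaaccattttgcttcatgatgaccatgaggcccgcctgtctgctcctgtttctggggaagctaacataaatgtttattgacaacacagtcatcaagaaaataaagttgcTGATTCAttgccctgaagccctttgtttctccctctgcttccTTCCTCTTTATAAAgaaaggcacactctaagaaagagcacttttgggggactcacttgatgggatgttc

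These windows lie at chr17:43568201-43568500 (+ strand) for Pla2g7, chr10:93453146-93453445 (+ strand) for Lta4h, chr11:50238483-50238782 (- strand) for Ltc4s, chr2:36230176-36230475 (+ strand) for Ptgs1, chr1:150099781-150100080 (+ strand) for Ptgs2 and chr6:38918736-38919035 (+ strand) for Tbxas1. Positions are given for the first base of a match, with the annotated start as 0. The PU.1-type core, named for a factor of myeloid cells, stood at -126 in Lta4h, 16 in Ltc4s, -24 in Ptgs1, -247 in Ptgs2 and -19 in Tbxas1, and no match was found in the Pla2g7 window. It is a common string, held by 28.3% of the 32851 promoters in the table. Pla2g7 held a GC box at -13, as 35.7% of promoters did in any position. The Ptgs2 window held the C/EBP palindrome at -69, a string present in 0.183% of promoters, and a cAMP response element core at 12 that overlapped an E-box at 16, strings present in 7.51% and 7.15% of promoters. Its GC box lay at -170. In Tbxas1, an AP-1 site lay at -61 and overlapping TATA box matches lay at -13 and -11, with shares of 7.81% and 13.6% over the table. A match is a description of these letters and not of a bound factor.

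Pla2g7 encodes the platelet-activating factor acetylhydrolase, a secreted enzyme that inactivates platelet-activating factor and cleaves oxidised phospholipids. It lies on chromosome 17 at 43568098 to 43612201 (GRCm38, + strand). It was at 42.2, 32.6 and 100.2 CPM in replicates 1, 2 and 3 of Nor_Bl_mono, at 192, 134 and 359 CPM in those of NMO_Bl_mono, and at 149, 163 and 110.0 CPM in those of NMO_Br_mono. Every NMO library, from blood or brain, was above the highest normal library, and the NMO blood and NMO brain libraries overlapped. The group means were 58.3 ± 36.6, 228 ± 117 and 141 ± 27.5 CPM (SD, n = 3).

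In NMO_Bl_mono the mean of Pla2g7 was 3.92-fold that of Nor_Bl_mono. The fitted log2 fold change was 1.97 ± 0.68 (SE) with an adjusted p of 1 by edgeR's quasi-likelihood test with Benjamini-Hochberg adjustment over 10107 genes. It passed the unadjusted threshold (p under 0.05 with a change of at least 1.2-fold), which 0.712% of all genes tested passed in this comparison. In NMO_Br_mono against Nor_Bl_mono the log2 fold change was 1.27 ± 0.67 (adjusted p = 0.725, edgeR), and in NMO_Br_mono against NMO_Bl_mono it was -0.70 ± 0.66 (adjusted p = 1, edgeR). With 3 libraries against 3, an exact two-sided permutation test of one gene cannot give a p below 0.1, and both comparisons with normal blood gave 0.1. The unadjusted call in blood was lost without Nor_Bl_mono replicate 1 (1.78 on the log2 scale) and without Nor_Bl_mono replicate 2 (1.68).

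**Figure D1:**
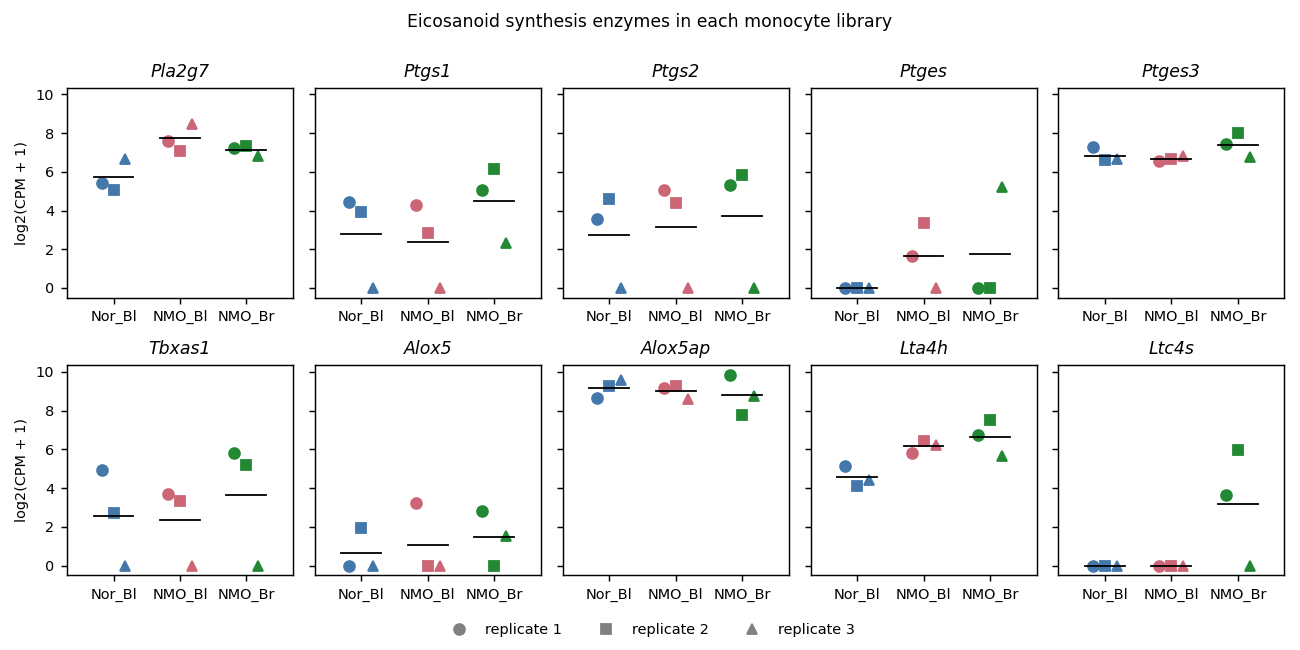
Level of each enzyme as log2(CPM + 1) in each library (circles, squares and triangles are replicates 1, 2 and 3; the line is the mean of the group). In Pla2g7 and Lta4h the NMO libraries all lie above the normal blood libraries, while Ptgs1, Ptgs2 and Tbxas1 are at 0 in Nor_Bl_mono replicate 3 and NMO_Bl_mono replicate 3.

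The cyclooxygenases were uneven over the libraries of each group. Ptgs1, the constitutive isoform, lies on chromosome 2 at 36230426 to 36252272 (+ strand) and was at 20.5, 14.1 and 0 CPM in Nor_Bl_mono, 18.2, 6.06 and 0 CPM in NMO_Bl_mono, and 32.4, 69.8 and 3.96 CPM in NMO_Br_mono. Replicates 1 and 2 from the brain were above every blood library, but replicate 3 was below 4 of the 6. The difference between brain and NMO blood was 2.13 ± 2.60 on the log2 scale (adjusted p = 1, edgeR).

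Ptgs2, the inducible isoform, lies on chromosome 1 at 150100031 to 150108227 (+ strand). Its level was 11.01, 23.5 and 0 CPM in Nor_Bl_mono, 32.3, 20.0 and 0 CPM in NMO_Bl_mono, and 38.9, 56.7 and 0 CPM in NMO_Br_mono, so each group held a library without a count beside libraries with 77 to 599 counts. The brain libraries with counts were again above all blood libraries. The log2 fold change of brain over NMO blood was 0.87 ± 2.69 (adjusted p = 1, edgeR). Its direction turned without the 2 libraries of fewest genes (-0.42) and in limma-voom with sample weights (-3.48). Dissociation and immediate-early genes, a class to which Ptgs2 is often counted, summed to 6466 to 13416 CPM in NMO_Br_mono. They summed to 1223 to 6423 CPM in NMO_Bl_mono and 2075 to 9718 CPM in Nor_Bl_mono. Of the 12 listed genes, 12 were above the floor in each brain library, 9 to 12 in NMO_Bl_mono and 10 to 12 in Nor_Bl_mono. Among them, Hspa1a was at 4089, 1045 and 563 CPM and Hspa1b at 4215, 1046 and 378 CPM in brain replicates 1, 2 and 3. In blood these heat-shock genes were at most at 51.4 and 34.5 CPM. In brain against NMO blood 9 of the 12 were fitted higher and 3 lower (Fosb, Junb and Ier2). The part of the 12 genes in the Ptgs2 level was not tested.

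The terminal prostanoid synthases did not follow a common pattern. Ptges, the inducible microsomal prostaglandin E synthase (chromosome 2, 30889471 to 30929863, - strand), had no count in the 3 normal libraries, 2.09, 9.20 and 0 CPM in NMO_Bl_mono, and 0, 0 and 35.6 CPM in NMO_Br_mono. The brain signal came from 1 library. Against the floor of the normal libraries, the group mean was at least 10.8-fold higher in NMO_Bl_mono and at least 33.9-fold higher in NMO_Br_mono. These differences were not called by edgeR (adjusted p = 1 and adjusted p = 0.708), and without NMO_Br_mono replicate 3 no count remained in the brain. DESeq2 called Ptges in both comparisons with normal blood, with adjusted p-values of 4.37e-06 and 1.96e-07, from 15, 85 and 0 counts in NMO_Bl_mono and 0, 0 and 360 in NMO_Br_mono.

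Ptges3, also known as the co-chaperone p23 of HSP90 and described as the cytosolic prostaglandin E synthase (chromosome 10, 128058954 to 128077272, + strand), was counted in every library. It was at 153, 97.2 and 98.9 CPM in Nor_Bl_mono, 94.6, 99.1 and 113 CPM in NMO_Bl_mono, and 172, 253 and 109 CPM in NMO_Br_mono. Replicates 1 and 2 from the brain were above all blood libraries, and replicate 3 was within their range. The brain group differed from NMO blood by 0.80 ± 0.61 and from normal blood by 0.61 ± 0.61 on the log2 scale, with adjusted p-values of 1 in edgeR. Of the 75-base stretches of its transcripts, 20.5% also occur in the processed pseudogenes Ptges3-ps and Gm11893, and reads from there cannot be assigned to one of them. This share was 0% near the transcript ends where 3ʹ reads are expected to lie.

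Tbxas1 encodes thromboxane A synthase, a cytochrome P450 of platelets and macrophages (chromosome 6, 38875404 to 39084585, + strand). Its level was 29.5, 5.47 and 0 CPM in Nor_Bl_mono, 12.1, 9.20 and 0 CPM in NMO_Bl_mono, and 54.2, 35.4 and 0 CPM in NMO_Br_mono. The 2 brain libraries with counts were above every blood library. The log2 fold change of brain over NMO blood was 2.07 ± 2.92 (adjusted p = 1, edgeR), and in limma-voom it turned to -2.12. Platelet markers moved the other way: 13 genes summed to 25.6 to 39.6 CPM in the brain against 583 to 3613 CPM in Nor_Bl_mono and 626 to 3088 CPM in NMO_Bl_mono, and Gp1ba, Gp5, Gp6, Gp9, Treml1 and Tubb1 had no count in the brain. Microglial markers moved with Tbxas1 and Ptgs1 between groups, at 827 to 970 CPM in the brain for 10 genes, 142 to 394 CPM in normal blood and 0.0904 to 242 CPM in NMO blood, with 8 to 9 of the 10 above the floor in brain libraries and 0 to 5 in blood libraries. Cx3cr1, which monocytes also express, made up much of the blood values, whereas Fcrls was at 50.3 to 77.1 CPM in the brain and, like Olfml3, Tmem119 and Gpr34, had no count in blood. P2ry12, on which cells were gated out, was at 9.89 to 69.3 CPM in the brain and at up to 43.2 CPM in blood. Within the brain group, the summed microglial markers were at 970, 940 and 827 CPM in replicates 1, 2 and 3. Tbxas1 was at 54.2, 35.4 and 0 CPM in the same libraries, and Ptgs1 at 32.4, 69.8 and 3.96 CPM. The part of microglial or platelet RNA in the Tbxas1 and Ptgs1 levels was not tested.

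Over the 9 libraries, log2(CPM + 1) of Ptgs1, Ptgs2 and Tbxas1 correlated at r = 0.90 (Ptgs1 and Ptgs2), 0.91 (Ptgs1 and Tbxas1) and 0.92 (Ptgs2 and Tbxas1). This is a description of 9 points that share the empty libraries Nor_Bl_mono replicate 3 and NMO_Bl_mono replicate 3, and is given without a test.

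In the leukotriene branch, Alox5ap was counted in each library and Alox5 in few. Alox5ap, which encodes FLAP (chromosome 5, 149264767 to 149288153, + strand), was at 407, 622 and 775 CPM in Nor_Bl_mono, 579, 620 and 391 CPM in NMO_Bl_mono, and 928, 215 and 425 CPM in NMO_Br_mono. Both the highest and the lowest library came from the brain, and the 3 groups overlapped. Brain and NMO blood differed by -0.02 ± 0.49 on the log2 scale, NMO and normal blood by -0.18 ± 0.49, and brain and normal blood by -0.20 ± 0.49, all with an adjusted p of 1 in edgeR. Alox5ap had the smallest standard errors among the enzymes tested.

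Alox5, the 5-lipoxygenase itself (chromosome 6, 116410077 to 116461178, - strand), had counts in 4 of 9 libraries. It was at 0, 2.84 and 0 CPM in Nor_Bl_mono, 8.50, 0 and 0 CPM in NMO_Bl_mono, and 6.07, 0 and 1.88 CPM in NMO_Br_mono. No library held more than 61 counts, and libraries with and without counts stood side by side in each group. Brain and NMO blood differed by -0.09 ± 3.34 on the log2 scale (adjusted p = 1, edgeR), an error too wide to read a direction from.

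Lta4h encodes leukotriene A4 hydrolase, which makes leukotriene B4, a chemoattractant for neutrophils (chromosome 10, 93453411 to 93484875, + strand). It was at 34.3, 16.5 and 20.1 CPM in Nor_Bl_mono, 56.1, 84.9 and 73.8 CPM in NMO_Bl_mono, and 105, 185 and 50.2 CPM in NMO_Br_mono. As for Pla2g7, every NMO library was above every normal library, and NMO blood and brain overlapped. The group means were 23.6 ± 9.42, 71.6 ± 14.5 and 114 ± 67.8 CPM (SD, n = 3).

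Against normal blood, the mean of Lta4h was 4.80-fold in NMO_Br_mono and 3.03-fold in NMO_Bl_mono. The former corresponded to a log2 fold change of 2.26 ± 0.94 (adjusted p = 0.708, edgeR), which passed the unadjusted threshold beside 5.82% of all genes tested. The latter was 1.60 ± 0.92 (adjusted p = 1, edgeR) and did not pass it. The call against normal blood held without NMO_Bl_mono replicate 3 or NMO_Br_mono replicate 3 and was lost on leaving out any 1 of the other 7 libraries, with a lowest log2 fold change of 1.73. Brain and NMO blood differed by 0.66 ± 0.90 (adjusted p = 1, edgeR).

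Ltc4s encodes leukotriene C4 synthase, which conjugates leukotriene A4 with glutathione (chromosome 11, 50236461 to 50238616, - strand). It had no count in the 6 blood libraries and was at 11.6, 61.1 and 0 CPM in NMO_Br_mono, from 103, 646 and 0 counts. The group mean in the brain was at least 71.7-fold the floor of NMO_Bl_mono and at least 69.3-fold that of Nor_Bl_mono, although 1 of the 3 brain libraries was empty. It did not pass the filter. With no filter it passed the unadjusted threshold for brain against NMO blood, with adjusted p = 0.671 (edgeR). Of the 14442 genes then tested, 700 passed that threshold. All Ltc4s counts came from the brain group, so this pass restates the zeros in blood and is no further support. Mast cells and basophils also use this enzyme; their 11 markers summed to 0.189 to 36.3 CPM in the brain against 35.7 to 197 CPM in normal and 51.2 to 180 CPM in NMO blood, and 5 of the 11 were at or under the floor in every library of blood and brain. Cma1 was at up to 162 CPM in blood and under the floor in the brain, whereas Hdc (mean 17.1 CPM in the brain and 14.8 CPM in NMO blood) and Kit (6.50 and 6.52 CPM) overlapped. Microglial and border-associated macrophage markers were higher in all brain libraries than in any blood library, the latter at 193 to 386 CPM against at most 45.4 CPM, and their part in the Ltc4s counts was not tested.

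**Figure D2:**
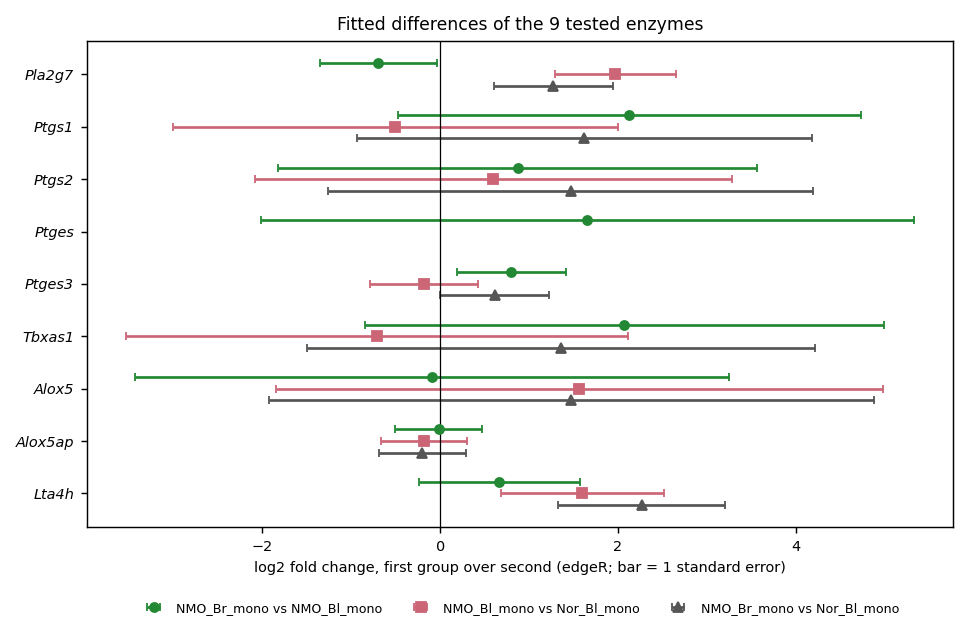
Fitted log2 fold change (edgeR) of the 9 tested enzymes in 3 comparisons, with bars of 1 standard error; the values of Ptges against normal blood are left out because that group had no count. The bars of Pla2g7 and Lta4h against normal blood lie above 0, and those of Ptgs1, Ptgs2, Tbxas1 and Alox5 span 0.

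Across the enzymes, 0 of the 9 tested passed the adjusted threshold in NMO_Br_mono against NMO_Bl_mono, where 0.247% of all genes tested did. The same count was 0 in NMO_Bl_mono against Nor_Bl_mono (0% of all genes), in NMO_Br_mono against Nor_Bl_mono (0.247%) and in the brain group against the mean of the blood groups (0.435%). DESeq2 called 0 in the first of these comparisons and 1, Ptges, in each of the others, and limma-voom called 0 in all 4. Over all 10107 genes DESeq2 called 48, 118 and 153 as higher and 21, 248 and 342 as lower in those others. At the unadjusted threshold, 0 of 9 passed in brain against NMO blood (5.32% of all genes) and 0 of 9 in brain against the mean of both blood groups (6.89%). Pla2g7 alone passed in NMO against normal blood and Lta4h alone in brain against normal blood. Without the 2 libraries of fewest genes, Pla2g7 and Lta4h passed in NMO against normal blood, and Lta4h and Ptges in brain against normal blood. More genes passed in this setting, 146 and 1073 of all 11168 tested in these 2 comparisons.

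Separation of the libraries gave a similar account. Every NMO_Bl_mono library was higher than every Nor_Bl_mono library for 2 of 9 enzymes, Pla2g7 and Lta4h, as for 2.34% of all genes tested. The same 2 enzymes separated NMO_Br_mono from Nor_Bl_mono, as did 6.07% of all genes, and both comparisons share the normal libraries. For brain against NMO blood the count was 0 of 9, beside 6.3% of all genes. The median log2 fold change of the 9 enzymes was 0.80 in brain against NMO blood (0.05 over all genes tested), 0.60 in NMO against normal blood (-0.16) and 1.47 in brain against normal blood (-0.12). Enzymes at 0 in several libraries weigh on these medians: the standard error in brain against NMO blood was 0.49 to 0.90 for the 4 enzymes counted in every library and 2.60 to 3.67 for the other 5.

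The rest of the pathway was followed in 8 lists of 86 genes, of which 84 were listed, 49 were tested and 18 had at most 3 counts in any library. In brain against NMO blood, 0 of 49 passed the adjusted threshold and 1 passed the unadjusted threshold, Hsp90aa1 (5.32% of all genes did). In NMO against normal blood 2 passed it as higher, Pla2g6 and Ptgds (0.712% of all genes passed in either direction), and in brain against normal blood 6 passed as higher (Pla2g6, Pla2g15, Mgll, Ptgds, Hsp90aa1 and Hsp90ab1) and Mgst2 as lower, beside 5.82% of all genes. These genes are named after their values were seen. Of these, Pla2g6, Pla2g15, Mgll and Ptgds had no count in normal blood. Over all 49 genes the median log2 fold change in brain against NMO blood was 0.46, beside 0.05 over all genes tested. Of the 49, 4 were higher and 2 lower in every brain library than in every NMO blood library. Over all 10107 genes tested, 637 and 611 were. Against all blood libraries, 2 of the 49 were higher and 1 lower, beside 361 and 316 of all genes. Separations named below are to be read beside these counts.

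HSP90 is the chaperone that Ptges3 assists. Hsp90aa1, its stress-inducible form, was at 355, 345 and 249 CPM in Nor_Bl_mono, 293, 201 and 179 CPM in NMO_Bl_mono, and 1109, 586 and 531 CPM in NMO_Br_mono. Each brain library was above each blood library. It was 3.31-fold as high in the brain as in NMO blood (log2 fold change 1.73 ± 0.43, adjusted p = 0.236, edgeR). Hsp90ab1, its constitutive form, was at 1057 to 2053 CPM in the brain and 609 to 1225 CPM in NMO blood (0.84 ± 0.39, adjusted p = 0.802, edgeR), and the HSP90 partner Cdc37 was at 48.1 to 154 CPM and 67.0 to 132 CPM. Of the 7 genes of this list, 5 were fitted higher and 2 lower (Fkbp4 and Fkbp5) in brain than in NMO blood. Hspa1a, a heat-shock gene known to respond to tissue dissociation, separated brain from blood as Hsp90aa1 did. It was at 4089, 1045 and 563 CPM in the brain against at most 51.4 CPM in blood. Its bearing on Hsp90aa1 and Ptges3 was not tested.

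Arachidonic acid is released and stored again by the next groups of genes. Of 13 genes of release, 6 were tested, 5 higher and 1 lower in brain than in NMO blood, and none passed a threshold. Pla2g15, a lysosomal phospholipase, was at 92.1, 0 and 92.6 CPM in the brain, at 4.04, 0 and 0 CPM in NMO blood and at 0 in normal blood. Plaa, a phospholipase A2 activating protein, was at 0 to 39.8 CPM in the brain and 0 to 39.9 CPM in NMO blood, and Daglb, a diacylglycerol lipase, at 0 to 33.1 and 0 to 26.3 CPM. Of 8 tested genes of re-esterification, 5 were higher and 3 lower, and none passed a threshold. Acsl4, which activates arachidonic acid for its return to membranes, was at 79.6, 239 and 74.0 CPM in the brain and at 57.4 to 67.7 CPM in NMO blood, a separation with overlap in normal blood (37.9 to 216 CPM). Acsl5, another such ligase, named after its values were seen, separated the other way, at 0 to 39.5 CPM in the brain and 57.1 to 97.6 CPM in NMO blood (adjusted p = 1, edgeR). The acyltransferases Mboat7 and Lpcat3 ranged from 34.2 to 139 and from 0.473 to 122 CPM in the brain and from 28.4 to 128 and from 0 to 76.9 CPM in NMO blood.

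The other prostanoid synthases, Akr1b3 apart, each had no count in some libraries. Of 5 tested, 2 were higher and 3 lower in brain than in NMO blood, and none passed a threshold. Hpgds, the haematopoietic prostaglandin D synthase, was at 0.0946 to 114 CPM in the brain, 0 to 45.1 CPM in NMO blood and 0 to 4.58 CPM in normal blood, and Ptgds, its lipocalin-type counterpart, at 0 to 47.2, 0 to 71.9 and 0 CPM. Akr1b3, an aldo-keto reductase, was at 5.44 to 30.3 CPM in the brain and 16.2 to 26.3 CPM in NMO blood. Ptgis, the prostacyclin synthase, had no count in the libraries.

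Alox12, the platelet 12-lipoxygenase, was lower in the brain. It was at 114, 58.5 and 26.3 CPM in Nor_Bl_mono, 99.4, 67.7 and 30.6 CPM in NMO_Bl_mono, and 18.1, 0 and 1.09 CPM in NMO_Br_mono. Every brain library was below every blood library (log2 fold change -3.36 ± 1.78 against NMO blood, adjusted p = 0.802, edgeR), and the platelet markers given above were lower in the same libraries; their part was not tested. Cyp4f18, which hydroxylates leukotriene B4, was at 56.9 to 94.7 CPM in the brain and 1.27 to 111 CPM in NMO blood, and Ephx1, an epoxide hydrolase, at 0 to 33.0 CPM and 0 CPM. Alox8, Aloxe3, Alox12b and Alox12e had no count.

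Downstream of Ltc4s, cysteinyl leukotrienes are trimmed by peptidases and act on their own receptors. Of 5 tested genes of this list, 2 were higher and 3 lower in brain than in NMO blood. Dpep2, a dipeptidase that acts on leukotriene D4, was at 16.1 to 77.4 CPM in the brain, 0 to 6.60 CPM in NMO blood and 4.72 to 27.4 CPM in normal blood, so that brain and NMO blood did not overlap (3.30 ± 2.30 on the log2 scale, adjusted p = 1, edgeR). Mgst1, a microsomal glutathione transferase, was at 16.6 to 67.2 CPM in the brain and 0 to 129 CPM in NMO blood, and Ggt5, which splits leukotriene C4, at 0 to 0.189 CPM and 0 to 3.06 CPM. Cysltr1, the receptor for leukotriene D4 and named here after its values were seen, was at 56.1, 116 and 0 CPM in the brain and at most 10.4 CPM in blood (3.52 ± 2.86 against NMO blood, adjusted p = 1, edgeR). The brain libraries with Cysltr1 counts were the ones with Ltc4s counts, and NMO_Br_mono replicate 3 held neither. Ptgs2 and Tbxas1 had the same pattern in the brain, and 24.1% of all genes tested were at 0 in NMO_Br_mono replicate 3.

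Of the genes of degradation and transport, 7 were tested, 5 higher and 2 lower in brain than in NMO blood, and none passed a threshold. Cbr3, a carbonyl reductase, was at 19.6 to 62.7 CPM in the brain, above all blood libraries (at most 10.6 CPM). The transporters Abcc1 and Abcc4, which export leukotriene C4 and prostaglandins, were at 19.3 to 86.4 and 40.2 to 45.9 CPM in the brain and at 0 to 30.9 and 17.4 to 60.9 CPM in NMO blood. Of 19 receptors, 8 were tested, 4 higher and 4 lower, and none passed a threshold; 6 had at most 3 counts in every library. Ptger4, a receptor for prostaglandin E2, was at 22.7 to 155 CPM in the brain and 75.4 to 124 CPM in NMO blood, and Ltb4r1, the high-affinity receptor for leukotriene B4, at 44.9 to 142 and 0 to 66.7 CPM. Cmklr1, a receptor for chemerin and resolvin E1, was at 111 to 146 CPM in the brain, 49.999 to 344 CPM in NMO blood and 29.8 to 82.7 CPM in normal blood.

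**Figure D3:**
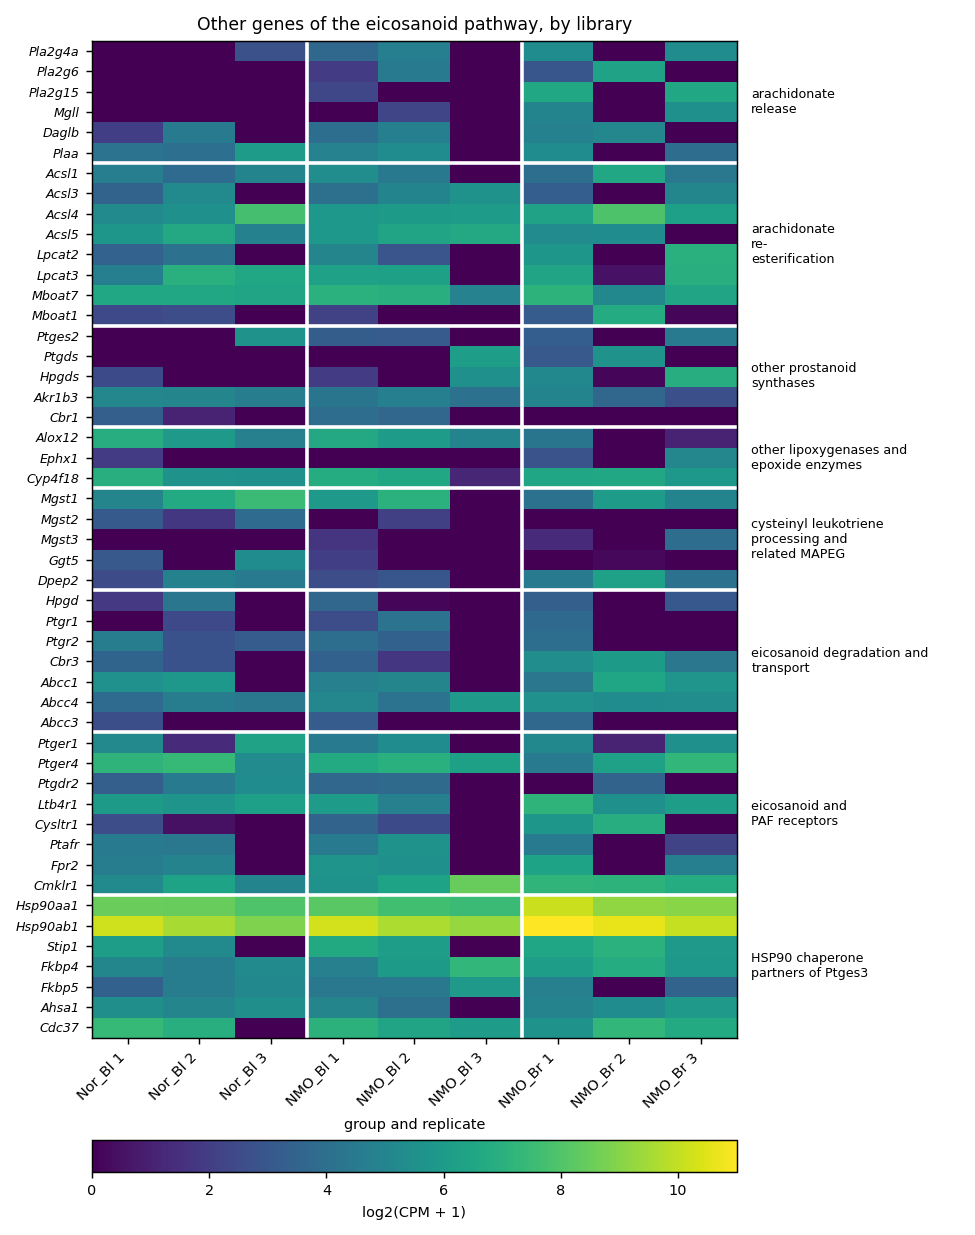
Level of the 49 tested pathway genes as log2(CPM + 1) in each of the 9 libraries, with white lines between groups and between lists. Hsp90aa1 is brighter in the 3 brain libraries than in blood, Alox12 is darker there than in blood, and NMO_Bl_mono replicate 3 and NMO_Br_mono replicate 2 hold many genes at 0.

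The cells were checked against marker lists. The 12 monocyte markers summed to 5607 to 9446 CPM in NMO_Br_mono, 3871 to 7532 CPM in NMO_Bl_mono and 5245 to 6882 CPM in Nor_Bl_mono. These sums hide shifts both ways: 6 of the 12 were fitted higher and 6 lower in brain than in NMO blood. Ccr2, Csf1r, Cd14 and Itgam were higher in every brain library than in every NMO blood library. Ly6c2 was lower in each (mean 231 against 629 CPM). Over all 10107 genes tested, 637 separated as higher and 611 as lower. NK cell markers were at 2094 to 3097 CPM over the blood libraries and at 4.27 to 274 CPM in the brain, and neutrophil markers were at 493 to 1969 CPM in the brain against 82.6 to 341 CPM in blood. These lists moved between tissues, and their part in the brain and blood differences of the enzymes was not tested. Between NMO and normal blood, where Pla2g7 and Lta4h separated, the ranges of the summed levels overlapped for each of the 8 lists plotted. Single markers separated the same groups, however: the monocyte marker Vcan was at a mean of 347 CPM in NMO and 65.9 CPM in normal blood, with each NMO library higher, and Plac8 (521 and 978 CPM) and the dendritic cell marker Clec9a (2.97 and 24.1 CPM) were lower in each. Their fitted differences were not called (adjusted p = 1, edgeR). The fitted values of all 12 dissociation and immediate-early genes and all 6 dendritic cell genes were lower in NMO blood. So were those of 5817 of all 10107 genes tested. Among other lists, 7 of 8 tested microglial genes were lower and 7 of 7 tested erythroid genes higher in NMO blood. The neutrophil marker Lcn2 was at least 67.2-fold higher there by its mean, with overlap. Of the 9 neutrophil markers tested, however, 4 were higher and 5 lower in NMO than in normal blood, with a median log2 fold change of -0.60. Whether these shifts bear on Pla2g7 and Lta4h was not tested.

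**Figure D4:**
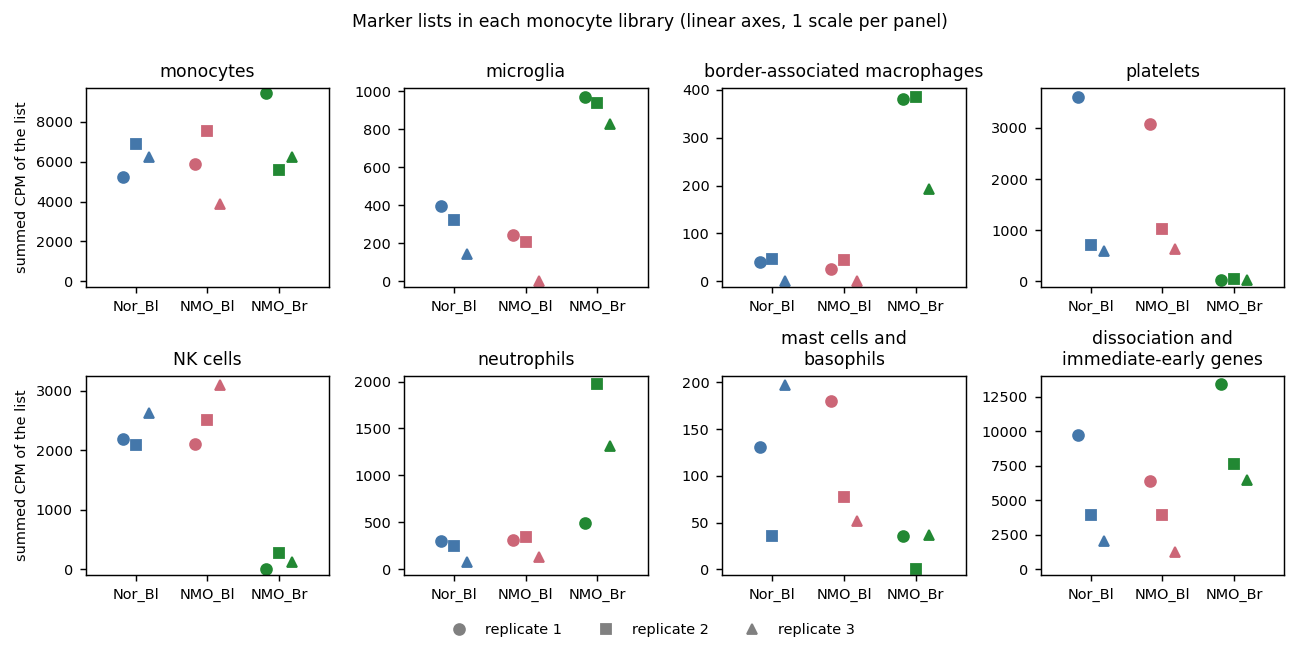
Summed CPM of 8 marker lists in each library, on linear axes with a scale of their own in each panel. Platelet and NK cell lists are higher in the 6 blood libraries, whereas microglia, border-associated macrophage and neutrophil lists are higher in the 3 brain libraries.

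For each enzyme tested, the genes of most similar pattern were sought among those with a mean of at least 50 CPM, by the Pearson correlation of log2(CPM + 1) over the 9 libraries. Alox5ap was closest to Lamp1 (r = 0.95), Ms4a6c (0.92) and Gdi2 (0.91). Lta4h was closest to Vcan (0.90), Rps21 (0.90) and Rps3 (0.88), and Pla2g7 to Pcyt1a (0.89), Sdf2l1 (0.88) and Eif4g1 (0.88). Ptgs1 had Twf2 (0.98), Btg2 and Ankrd12 (both 0.93), Ptgs2 had Cd52 (0.92), Spcs2 (0.90) and Mefv (0.89), and Tbxas1 had Cd52 (0.91), Grn and Twf2 (both 0.89). For Ptges3 the closest genes were Srgap2 (0.85), Cwf19l2 (0.83) and Cd84 (0.82). Alox5 and Ptges, counted in 4 and 3 libraries, gave Smarcc2 (0.91), Trim30a (0.79) and Mapk3 (0.78), and Cdk2ap2 (0.80), Cct4 (0.79) and Tubb6 (0.72). Each is the top of a search over 2904 or 2905 genes with 9 points and has no test.

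Some counts are uncertain by position. In GENCODE vM21, genes on the opposite strand overlap Pla2g7 (1700071M16Rik), Ptgs1 (Gm43621), Tbxas1 (Gm42962, 1700025N23Rik and Hipk2), Alox5ap (Gm19719) and Ltc4s (Gm26542), and the strand used in counting is not given in the sources used here. Near the transcript ends, 5% of the 75-base stretches of Pla2g7, 4.79% of those of Alox5ap and 1.61% of those of Ltc4s lay in another gene as well. The other enzymes shared 0% there.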

How the data were processed

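Monocytes sorted from blood and brain were profiled by QuantSeq 3ʹ sequencing in 9 libraries. The authors aligned reads to mm10 with Bowtie2, took coverage from bedtools with both uniquely and multiply aligned reads (versions and strand setting not given in the sources used here), and deposited raw counts. The entry with most counts was kept for each of 35 symbols listed more than once, and no enzyme was among them. Counts were fitted for 10107 of 23238 symbols that passed filterByExpr, in 1 model over all 9 libraries, with TMM factors and edgeR 4.0.16 quasi-likelihood tests (R 4.3.3) and Benjamini-Hochberg adjustment. Standard errors of edgeR fits are those implied by the F statistic of the test: the absolute log2 fold change over the square root of F. CPM use TMM-scaled totals. DESeq2 1.42.0, limma 3.58.1, other factors and filters, a replicate block and omission of each library were alternatives. The code was tested on simulated data. p-values measure the spread between pools of 5 mice, and bounds against a floor of 3 counts cover counting error only. The enzymes and lists were chosen with earlier results of these data known. By rule, all 10 enzymes are named, and from each pathway list the genes with p under 0.05 in brain against NMO blood and up to 3 of highest mean CPM; exceptions are said where they occur.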

Additional observations from a re-analysis of the deposited data

How the results depend on the processing

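Of 841 values of the 9 tested enzymes under the alternatives in all 4 comparisons, 53 turned direction, each of them a difference that was not called, and 3 were newly called. The turns given below as values or within ranges, 32 in all, are those of the 9 enzymes in brain against NMO blood and of the 4 enzymes counted in every library in the comparisons with normal blood. Of Pla2g7 in NMO against normal blood, the log2 fold change ranged from 1.49 to 2.61 (p under 0.05 in 22 of 24 alternatives), and of Lta4h in brain against normal blood from 1.73 to 2.63 (13 of 24). DESeq2 called 1 enzyme, Ptges, in each comparison but brain against NMO blood. At the unadjusted threshold, brain against NMO blood gave 1 with no filter (Ltc4s) and 0 to 1 on leaving out a library. The latter was Ltc4s too, which passed the filter when certain libraries were left out. It passed through its brain counts alone, so its entries in these counts restate the zeros in blood and are no further support. Over all genes, 700 of 14442 passed with no filter, and 374 to 702 on leaving out a library. NMO against normal blood gave 2 with at least 10 counts in every library, 2 without the 2 libraries of fewest genes, 3 in DESeq2, 2 in limma-voom and 0 to 1 on leaving out a library. In the same order, 36 of 2396, 146 of 11168, 243 of 10107 and 493 of 10107 genes passed, and 42 to 122 on leaving out a library. Brain against normal blood gave 2, 2 and 2 under the first 3 of these settings, 0 with a replicate block and 0 to 3 on leaving out a library. Over all genes 280 of 2396, 1073 of 11168, 1024 of 10107 and 382 of 10107 passed, and 372 to 919 on leaving out a library. Brain against both bloods gave 1 with no filter, 1 with at least 10 counts in every library, 2 in DESeq2 and 0 to 2 on leaving out a library. Here 1400 of 14442, 338 of 2396 and 1247 of 10107 genes passed, and 523 to 1019 on leaving out a library. Ltc4s was among the 3 and among the 2 found on leaving out a library. In brain against NMO blood, Ptgs2 turned to -0.42 without the 2 libraries of fewest genes and -3.48 in limma-voom, Tbxas1 to -2.12 in limma-voom, and Ptges to -3.17 with the block, -2.08 in limma-voom and -0.84 in limma-trend with a pseudocount of 0.1. Alox5 turned to 0.0223 with library sizes alone and 0.0210 with TMMwsp factors, 2.66 with the block, 1.17 in limma-voom, and 0.37 and 1.28 in limma-trend with pseudocounts of 1 and 0.1. Alox5ap turned to 0.00668 with RLE factors, 0.0150 with at least 10 counts in every library, 0.00667 in DESeq2, 0.0603 with TMMwsp factors and 0.19 without the 2 libraries of fewest genes. In NMO against normal blood, Ptges3 turned to 0.0944 with library sizes alone and Alox5ap to 0.12 in limma-voom, and in brain against normal blood Alox5ap turned to 0.19 without the 2 libraries of fewest genes. Leaving out a library gave, in brain against NMO blood, -8.11 to 3.51 for Ptges, -1.58 to 7.66 for Alox5 and -0.73 to 0.37 for Alox5ap, in NMO against normal blood -0.30 to 0.0608 for Ptges3 and -0.40 to 0.0432 for Alox5ap, and in brain against normal blood -0.91 to 0.19 for Alox5ap. The cause of these turns was not tested. limma-voom moved the median log2 fold change of all genes in brain against NMO blood from 0.05 to -0.67, and DESeq2 called 336 genes there where edgeR called 25. The labels do not say what the replicate numbers mark, and the main fit did not treat them as pairs. Deviations of same-numbered libraries correlated at -0.010 to 0.116 over 9 pairs, against -0.096 to 0.030 over 18 pairs of different numbers. The best match had the same number in 11 of 18 cases, so these low correlations were somewhat higher for the same number. Replicate 1 had the most genes with a count in each group (10669, 11556 and 9875). Ptgs2 and Tbxas1 had no count in replicate 3 of every group, and whether the numbers mark something shared was not tested further. With the replicate block Pla2g7 in NMO against normal blood was 2.004 and still passed the unadjusted threshold, and Lta4h in brain against normal blood was 2.14 and did not. Ptgs1, Ptgs2, Ptges, Tbxas1, Alox5 and Ltc4s each had no count in 2 or more libraries, which limits what their differences can show.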
